A study of Homo sapiens with 6 samples.

Results

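The YAP, TAZ and TEAD module was followed in 6 tumors that CRL-5889 cells, from an established human lung squamous carcinoma line, had formed in nude mice within 4 weeks. The module was taken as 10 genes: the coactivators YAP1 and WWTR1 (which encodes TAZ), the transcription factors TEAD1 and TEAD4, the kinases LATS1 and LATS2, and the targets CCN1, CCN2, ANKRD1 and AMOTL2. Every probe set whose platform annotation names exactly 1 of these genes was used, which gave 30 of the 49293 probe sets on the array and 10 of the 18132 genes with a probe set of their own. The rule for members uses gene names and no measured value, but the genes were chosen with earlier results of these data known. Values in a row belong to replicates 1, 2 and 3 of a group, in that order, and all levels are log2 values of 1 probe set, which say nothing of one gene against another.

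In 3 tumors (labelled TD) the implanted cells had been transfected with the TRA2B-DNAH5 fusion, and in 3 tumors (labelled ctrl) with the vector. All 6 share the cell line, the nude mouse host, which lacks a thymus and mature T cells, and the time of harvest. The comparison asks which transcripts the fusion changes in a grown tumor. The labels do not name the promoter of the construct or the parts of either gene it holds, nor say whether the cells are 1 clone or a pool. Each tumor is called a biological replicate in the labels, and 1 array was run per tumor, so 3 arrays per group limit the precision. In a principal component analysis of all genes tested, vector tumor 1 lay far from the rest (score 30.1 on component 1 against -8.58 to -3.68, 45.1% of the variance). Of 12 squamous markers, 9 had a probe set of their own and 8 lay above the level used as filter on dim probe sets (log2 4.94). The desmosomal cadherin DSG3 lay below that level, at a mean of 4.63, and the defining keratins KRT5 and KRT14 lay just above it, at 5.12 and 5.70. SOX2, a transcription factor of squamous lung cancer, was measured at 9.24. KRT6A, KRT17 and TP63 had no probe set of their own in the annotation.

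YAP and TAZ carry no DNA binding domain and act on genes through the TEAD factors. The Hippo kinases MST1 and MST2 activate LATS1 and LATS2, which phosphorylate YAP and TAZ and so keep them out of the nucleus. Most of this control therefore acts on the proteins, which an array does not measure, and transcripts of targets such as CCN1 (also called CYR61), CCN2 (CTGF), ANKRD1 and AMOTL2 are commonly read as output. In squamous and other lung cancers YAP and TAZ are known for roles in growth and invasion. LATS2 and AMOTL2, which restrain YAP, are targets of YAP themselves.

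Promoters are shown for the targets whose own sequence entry was found, since TEAD sites near the start are a known route by which YAP and TAZ act on CCN2 and ANKRD1. The TEAD core motif CATTCC was searched on both strands (its reverse complement is GGAATG) in the 250 bases before the RefSeq start on GRCh38.p14. It was present in 11.9% of 27305 promoters, at least 2 times in 0.963% and at least 3 times in 0.0952%. Of the members, 7 had a promoter entry and 3 of these had a match: CCN2 with 3, ANKRD1 with 2 and YAP1 with 1. WWTR1, LATS1, LATS2 and AMOTL2 had none in this window, and CCN1, TEAD1 and TEAD4 had no entry. For each gene only the first listed entry was searched, so other starts were not covered. The AP-1 motif TGACTCA (both strands, in 4.16% of promoters) and the CArG box bound by SRF (both strands, in 1.14%) were in none of the 7. Capitals mark the TEAD core motif, which appears as GGAATG on the strand of the gene in each match of CCN2 and ANKRD1. The windows lie at chr6:131951373-131951622 (minus strand, CCN2), chr10:90921088-90921337 (minus strand, ANKRD1) and chr3:134375418-134375667 (minus strand, AMOTL2, printed as the target without a match).
CCN2: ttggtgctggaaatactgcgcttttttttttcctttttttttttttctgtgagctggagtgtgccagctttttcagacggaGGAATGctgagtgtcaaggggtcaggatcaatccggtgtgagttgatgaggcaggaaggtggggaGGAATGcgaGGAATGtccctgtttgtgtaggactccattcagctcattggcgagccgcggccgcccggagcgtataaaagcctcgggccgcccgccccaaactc
ANKRD1: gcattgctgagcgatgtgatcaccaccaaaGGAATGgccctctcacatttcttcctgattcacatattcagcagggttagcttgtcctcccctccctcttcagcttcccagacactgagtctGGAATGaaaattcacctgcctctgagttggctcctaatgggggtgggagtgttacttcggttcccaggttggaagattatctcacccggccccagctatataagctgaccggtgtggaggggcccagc
AMOTL2: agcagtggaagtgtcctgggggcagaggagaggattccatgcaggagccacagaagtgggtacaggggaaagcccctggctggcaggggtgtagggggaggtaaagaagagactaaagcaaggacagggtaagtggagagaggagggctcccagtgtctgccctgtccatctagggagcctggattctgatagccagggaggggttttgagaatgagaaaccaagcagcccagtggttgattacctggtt

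No member passed the threshold between fusion and vector tumors by limma, with p adjusted by Benjamini-Hochberg across the whole table. Of the 8 members bright enough to be tested, 0 were called at adjusted p 0.05 and 0 had an unadjusted p below 0.05, where 0.073% and 5.89% of the 13694 genes tested did (10 and 807 genes). LATS1 and ANKRD1 lay below the filter level with every probe set. At the level of probe sets, fitted on all 49293 with no filter, 0 of 30 were called (0.0101% of all probe sets were) and 1 had an unadjusted p below 0.05 (5.22% of all). No member probe set had groups that did not overlap (0 of 30), against 10.8% of all probe sets, 5.94% with fusion tumors higher and 4.9% with fusion tumors lower. Probe sets of 1 gene are not replicates, and 8 of the 30 are of YAP1. Among the 8 tested members the groups did not overlap in 0, against 11.7% of all genes tested. The median log2 fold change of the 8 tested members, fusion minus vector, was 0.035, beside 0.0020 over all genes tested. In RNA of a whole tumor, fewer cells that make a transcript and less transcript per cell cannot be told apart.

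**Figure D1:**
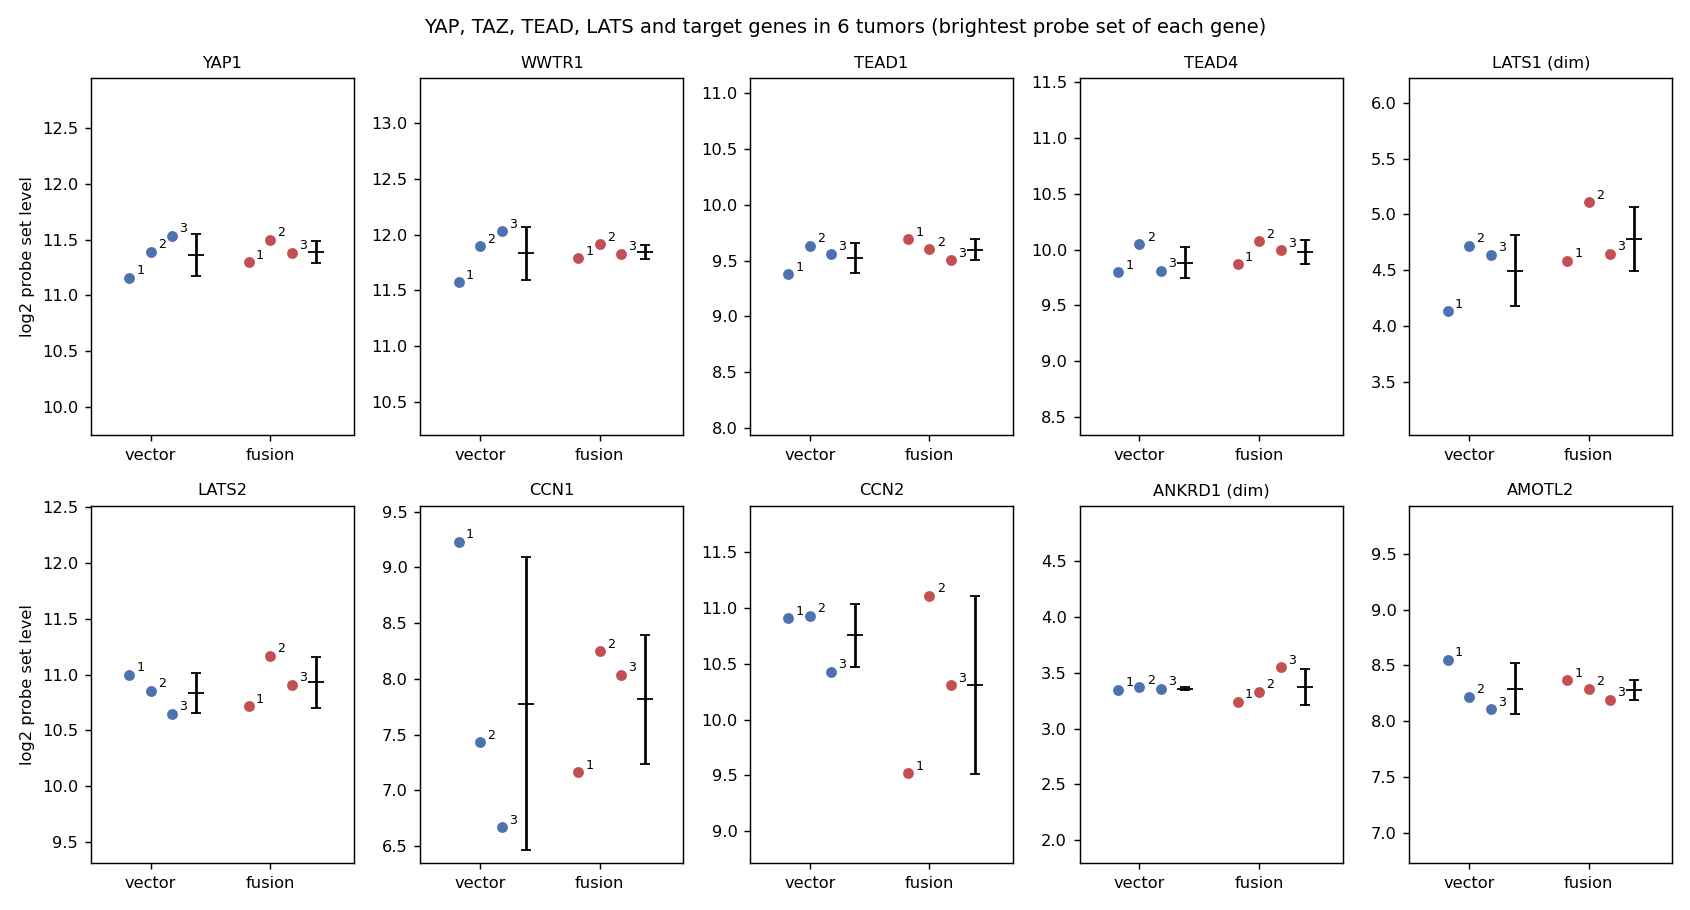
Log2 level of the brightest probe set of each of the 10 genes in vector tumors (blue) and fusion tumors (red), numbered by replicate, with the mean and SD of 3 tumors in black. Every panel spans 3.2 log2 units around its own centre. Only the CCN1 and CCN2 panels show tumors of 1 group over 1 log2 unit apart.

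YAP1, the coactivator itself, had nearly the same level in both groups. Its brightest probe set read 11.30, 11.50 and 11.38 with the fusion and 11.16, 11.39 and 11.53 with the vector. The groups overlapped, with vector tumors holding both the lowest and the highest value. The means were 11.39 ± 0.10 with the fusion and 11.36 ± 0.19 with the vector (SD, n = 3 each). The log2 fold change was 0.03 (SE 0.12, limma adjusted p = 0.990), and its 95% confidence interval of -0.24 to 0.30 allows a rise of up to 1.23-fold or a drop of up to 1.18-fold.

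Across the 8 YAP1 probe sets the log2 fold change ran from 0.0021 to 0.20, above 0 in each and short of the threshold in each. They did not order the tumors alike. Vector tumor 1 was the lowest of the 6 tumors in 5 of them, among them the 4 brightest, and the highest in 1. The probe sets match different RefSeq or GenBank records of the gene in the annotation, and which isoforms each detects was not tested.

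TAZ is the paralog of YAP and is encoded by WWTR1. Its brightest probe set read 11.79, 11.92 and 11.83 with the fusion and 11.57, 11.90 and 12.03 with the vector. All fusion values lay inside the range of the vector tumors. The log2 fold change was 0.01 (SE 0.13, 95% confidence interval -0.28 to 0.30, limma adjusted p = 0.998). The other 2 probe sets gave 0.06 and -0.10, and in the latter vector tumor 1 was the highest tumor at 10.08, whereas it was the lowest in the other pair.

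The groups also overlapped for the DNA-binding partners. With its brightest probe set TEAD1 read 9.69, 9.60 and 9.50 with the fusion and 9.38, 9.63 and 9.56 with the vector. Vector tumor 1 was the lowest of the 6 in each of the 3 TEAD1 probe sets. The log2 fold change was 0.08 (SE 0.10, 95% confidence interval -0.16 to 0.31, limma adjusted p = 0.981). TEAD4 has 1 probe set, at 9.87, 10.08 and 9.99 with the fusion and 9.80, 10.05 and 9.81 with the vector, again overlapping. Its log2 fold change was 0.10 (SE 0.11, 95% confidence interval -0.15 to 0.34, limma adjusted p = 0.970). The single member probe set with an unadjusted p below 0.05 was a dim one of TEAD1, at a mean of 4.59, with a log2 fold change of 0.35 (limma p = 0.0385, adjusted p = 0.934 over all probe sets; exact two-sided permutation p = 0.2). Its groups overlapped, and the other 2 TEAD1 probe sets gave 0.04 and 0.08.

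LATS2, the kinase that inactivates YAP and TAZ, did not differ between the groups beyond the spread of its tumors. Its brightest probe set read 10.72, 11.17 and 10.91 with the fusion and 11, 10.85 and 10.65 with the vector. Fusion tumor 2 was the highest of the 6 in all 3 LATS2 probe sets, and the groups overlapped in each. The log2 fold change was 0.10 (SE 0.14, 95% confidence interval -0.23 to 0.42, limma adjusted p = 0.983), with 0.04 and -0.10 for the other probe sets. LATS1, its paralog, was dim. The 3 LATS1 probe sets had mean levels of 3.66 to 4.64, all under the filter level, and log2 fold changes of -0.10 to 0.28. The brightest read 4.58, 5.11 and 4.65 with the fusion and 4.13, 4.72 and 4.64 with the vector, which overlap. Differences at levels this low may be understated, though the background level is not known.

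CCN1, a secreted matricellular protein and an early target of YAP and TAZ, varied more between tumors of 1 group than any other member. It read 7.16, 8.25 and 8.04 with the fusion and 9.23, 7.43 and 6.67 with the vector. Vector tumors 1 and 3 were the highest and the lowest of the 6, 5.89-fold apart, and every fusion tumor lay between them. The means were 7.82 ± 0.57 with the fusion and 7.78 ± 1.31 with the vector (SD, n = 3 each). The log2 fold change was 0.04 (SE 0.58, limma adjusted p = 0.999; exact two-sided permutation p = 1, where 0.1 is the smallest possible). Its 95% confidence interval, -1.28 to 1.36, leaves room for a change of over 2-fold in either direction. Both CCN1 probe sets put the 6 tumors in the same order, and the second gave a log2 fold change of -0.18.

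The sign of the CCN1 difference depended on single tumors. Without vector tumor 1 the log2 fold change was 0.77 (limma adjusted p = 0.536) and without vector tumor 3 it was -0.51 (0.871). It also turned negative without fusion tumor 2 (-0.18), fusion tumor 3 (-0.21) or vector tumor 2 (-0.13), and stood at 0.31 without fusion tumor 1. By within-group SD (1.01, where the median over all genes tested was 0.14) CCN1 ranked 10 of 13694 genes.

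CCN2, the connective tissue growth factor, read 9.52, 11.11 and 10.31 with the fusion and 10.91, 10.93 and 10.43 with the vector. Fusion tumor 1 was the lowest and fusion tumor 2 the highest of the 6, so the fusion tumors spanned the vector tumors. The means were 10.31 ± 0.80 and 10.76 ± 0.28 (SD, n = 3 each), and the log2 fold change was -0.44 (SE 0.35, 95% confidence interval -1.24 to 0.35, limma adjusted p = 0.962; exact two-sided permutation p = 0.6). All 3 CCN2 probe sets had fusion tumor 1 lowest and fusion tumor 2 highest, and gave log2 fold changes of -0.44, -0.44 and -0.60. The difference rested on fusion tumor 1, without which it was -0.05, while without fusion tumor 2 it was -0.84 (limma adjusted p = 0.995 and 0.690). By within-group SD (0.60) CCN2 ranked 59 of 13694 genes. YAP1, WWTR1, TEAD1, TEAD4, LATS2 and AMOTL2 had SDs of 0.11 to 0.20 and ranks of 3037 to 8875.

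AMOTL2, an angiomotin that tethers YAP at junctions and is itself a target, did not share this spread. It read 8.37, 8.29 and 8.19 with the fusion and 8.55, 8.22 and 8.11 with the vector. The fusion values lay inside the range of the vector tumors. The log2 fold change was -0.01 (SE 0.13, 95% confidence interval -0.30 to 0.28, limma adjusted p = 0.999), with 0.07 and 0.08 for the other 2 probe sets. The former of these, at a mean of 5.31, varied more, with SDs of 0.35 with the fusion and 0.39 with the vector. ANKRD1, a nuclear protein of muscle that is often used as a YAP reporter, was dim. Its 1 probe set read 3.24, 3.33 and 3.55 with the fusion and 3.35, 3.37 and 3.36 with the vector, under the filter level in every tumor. Its log2 fold change of 0.01 (SE 0.11) thus describes values that may be background. Its promoter window holds the TEAD core motif 2 times, as shown above.

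Several of these small differences rested on vector tumor 1. Without it the log2 fold change was -0.070 for YAP1, -0.12 for WWTR1, 0.0023 for TEAD1, 0.051 for TEAD4, 0.18 for LATS2, 0.10 for LATS1 and 0.12 for AMOTL2. None of these passed the threshold by limma, with adjusted p of 0.791 to 0.999. YAP1, WWTR1 and LATS2 also turned to -0.022, -0.024 and -0.025 without fusion tumor 2, where LATS1 stood at 0.12.

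**Figure D2:**
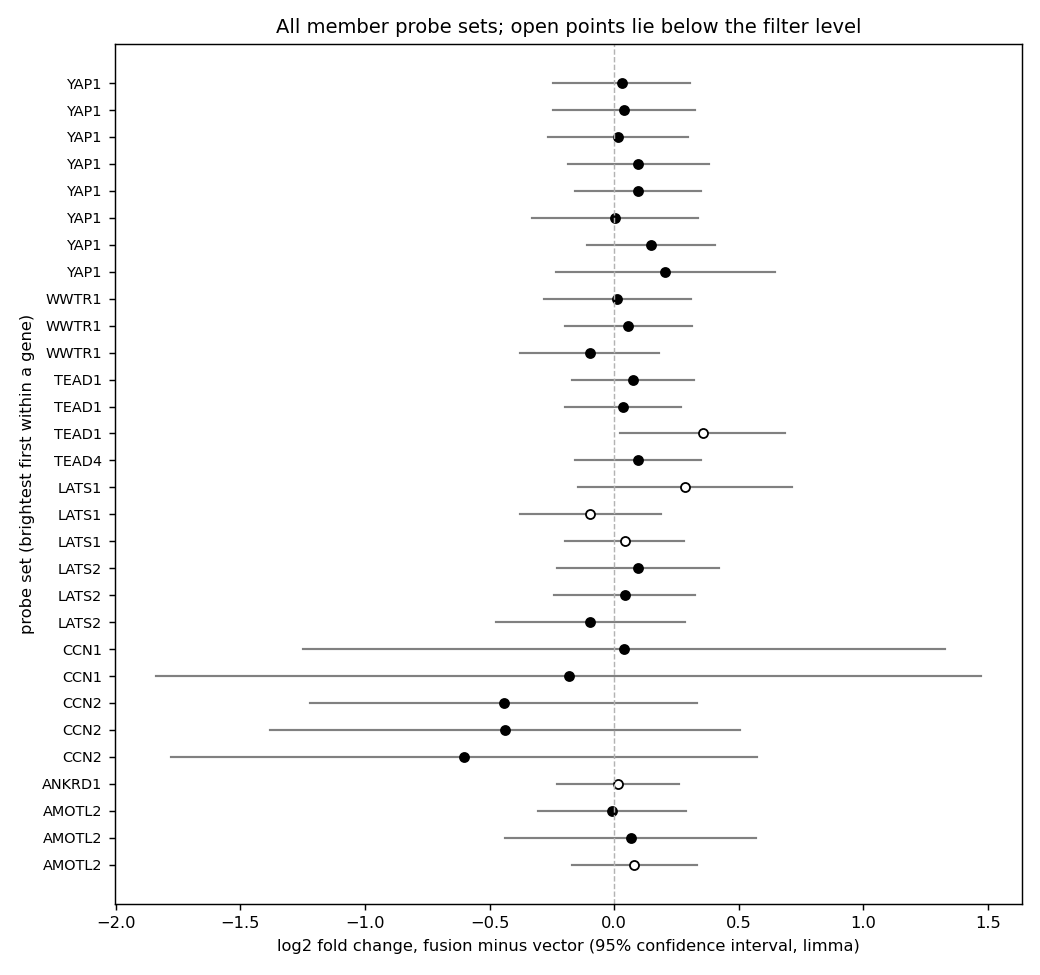
Log2 fold change, fusion minus vector, with its 95% confidence interval by limma for each of the 30 probe sets, brightest first within a gene, fitted on all 49293 probe sets. Filled points lie above the filter level of 4.94 and open points below it. The intervals of CCN1 and CCN2 are the widest, and the only interval that leaves out 0 is that of a dim TEAD1 probe set.

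Some transcripts of other kinds stood high or low in the same tumors as CCN1 and CCN2. EGR1 and NR4A1 below were picked after their values were seen, and so was the pairing of CCN1 with them and of CCN2 with muscle transcripts. CCN1 is itself an immediate early gene, induced within minutes by serum and stress. EGR1, a growth factor induced transcription factor, read 9.08, 9.25 and 9.53 with the fusion and 10.12, 8.02 and 8.12 with the vector. NR4A1, an orphan nuclear receptor, read 9.09, 9.84 and 9.42 with the fusion and 10.29, 8.87 and 8.80 with the vector. Vector tumor 1 was thus the highest of the 6 for CCN1, EGR1 and NR4A1, and vector tumors 2 and 3 were the lowest pair for EGR1 and NR4A1. The rest of the list was divided. JUNB, IER3, ATF3, ZFP36 and EGR3 were also highest in vector tumor 1. JUN, FOS, FOSB and DUSP1 were highest in fusion tumor 3, and KLF6 was lowest in vector tumor 1, at 10.86. IER2 read 10.70 in both fusion tumor 2 and vector tumor 1. Over the 13 immediate early genes tested, of 15 listed, mean levels ran from 8.82 to 9.11 in fusion and from 8.61 to 9.17 in vector tumors, and their part in the CCN1 values was not tested.

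Skeletal muscle transcripts also differed widely between tumors of 1 group. TNNC2, the troponin C of fast muscle, read 5.60, 9.31 and 6.21 with the fusion and 8.66, 7.36 and 6.30 with the vector, and it had the largest within-group SD of all genes tested (1.64). ACTA1, the skeletal muscle actin, read 6.92, 8.90 and 7.71 with the fusion and 8.96, 8.52 and 7.62 with the vector. Fusion tumor 1 was the lowest of the 6 for both and for CCN2, and fusion tumor 2 was the highest for TNNC2 and CCN2. The other muscle markers tested did not all share this order. TNNT3 was lowest in fusion tumor 1 (5.97), but CKM was lowest in vector tumor 3 (5.64). DES and MB were lowest in vector tumor 2 (6.19 and 5.49). ACTA1, TNNT3, CKM, DES and MB were each highest in vector tumor 1 and not in fusion tumor 2. Mean levels of the 6 muscle markers tested, of 10 listed, ran from 6.04 to 7.18 in fusion and from 6.30 to 7.25 in vector tumors. ACTA1, TNNC2, TNNT3 and CKM had log2 fold changes of -0.53, -0.40, -0.18 and -0.11, none at an unadjusted p below 0.05, and MYL1, MYOD1, MYH2 and MYH7 lay below the filter level. Mouse and human RNA were not separated on these arrays, and the part of muscle in the CCN2 values was not tested.

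**Figure D3:**
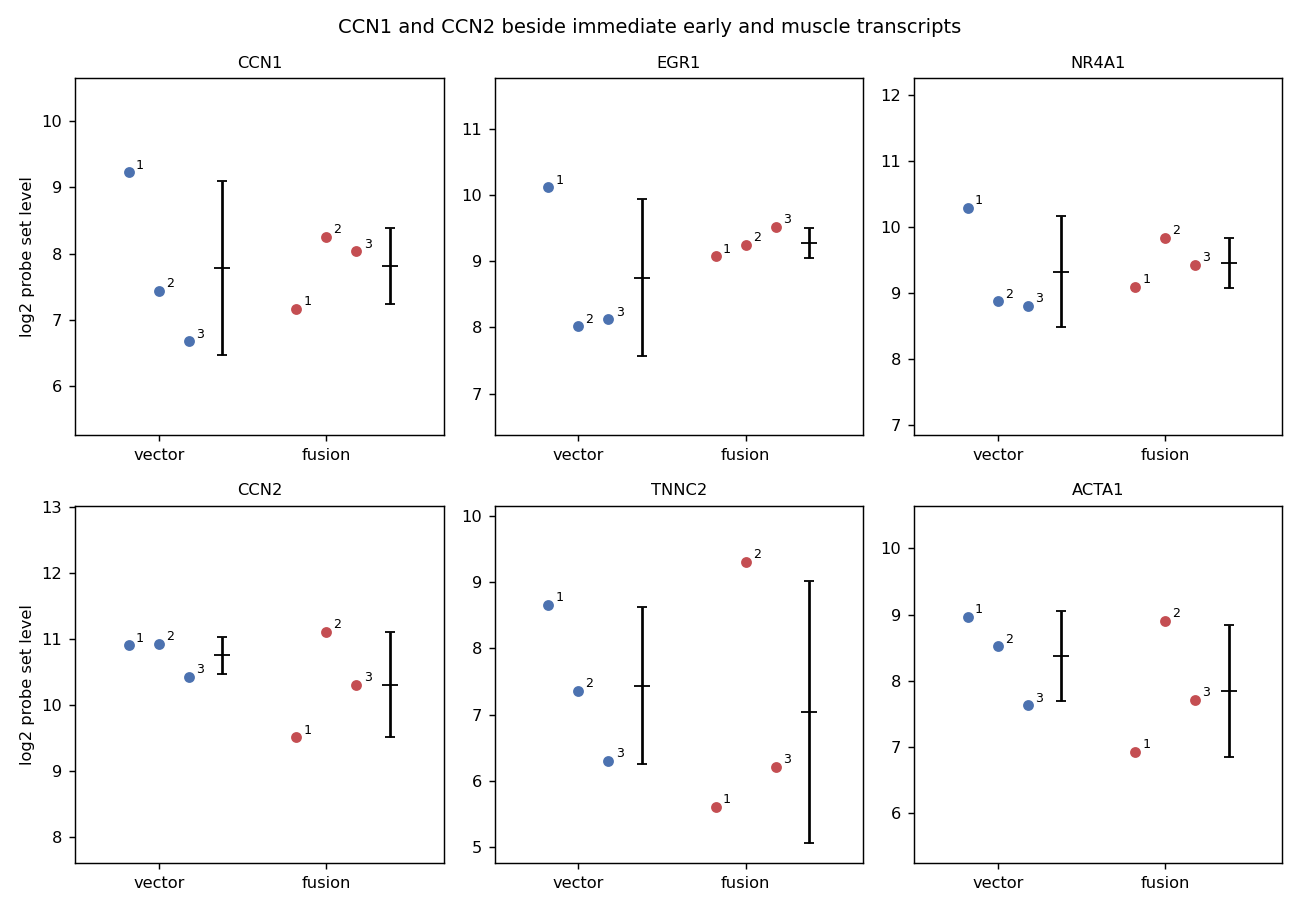
Log2 level of CCN1 and CCN2 beside the immediate early genes EGR1 and NR4A1 and the muscle genes TNNC2 and ACTA1, in vector (blue) and fusion (red) tumors numbered by replicate, with mean and SD in black. Every panel spans 5.4 log2 units. Vector tumor 1 is the highest for CCN1, EGR1 and NR4A1, and fusion tumor 1 the lowest for CCN2, TNNC2 and ACTA1.

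The genes whose levels followed the targets most closely over the 6 tumors were named by Pearson's r, as a description without a test. For CCN1 these were TGM3, a transglutaminase of epidermis (r = 0.997), SCARNA9L (0.997) and STX11, a syntaxin of membrane fusion (0.994). For CCN2 they were HSD17B7, an enzyme of sterol synthesis (0.981), NUP153, a nuclear pore protein (0.981), and DHRS9 (0.979). For AMOTL2 they were CHCHD5 (0.995), RITA1 (0.994) and FAF1 (0.994). The tumors share 1 array platform and 1 table, and each r rests on 6 points. None of the 9 is a member or on the list of other YAP and TAZ targets. Only 8 members and 14 such targets were among the 13694 genes tested, so this absence says little.

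No other gene of the pathway passed the threshold. In 3 lists (the kinase arm upstream, the other TEAD and VGLL genes, and other targets), pooled after their values were seen, 45 of 49 genes were tested. By limma 0 of these were called over all genes, while 7 were higher and 3 lower at an unadjusted p below 0.05, where 3.16% and 2.73% of all genes tested were. Their median log2 fold change was 0.024, and the groups did not overlap in 8 (6 with fusion tumors higher and 2 lower), where 11.7% of all genes tested did not (5.94% higher and 5.74% lower). The count of 7 fell to 4 with median centring of the arrays or without fusion tumor 3, and to 3 without fusion tumor 2 or vector tumor 3. The count of 3 was 1 without fusion tumor 1, fusion tumor 3 or vector tumor 2 and with the filter raised to the 50th percentile, and 6 with array weights, where the higher count was 8.

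Upstream, the 26 genes of the kinase arm held 12 above and 14 below 0, with a median of -0.0092. TAOK3, a kinase that can activate MST and LATS kinases, stood at 8.63, 8.42 and 8.52 with the fusion and 8.09, 8.12 and 8.07 with the vector. Its groups did not overlap, with a log2 fold change of 0.43 (SE 0.09, limma adjusted p = 0.309). NF2 encodes merlin, the tumor suppressor that recruits LATS to the membrane, and had a log2 fold change of 0.43 (SE 0.16, adjusted p = 0.730), with overlapping groups. FRMD6, a relative of merlin, had 0.35 (SE 0.13, adjusted p = 0.729), with groups apart, and 0.21 without vector tumor 3. FAT1, the giant atypical cadherin that restrains YAP, stood at 7.87, 8.69 and 8.12 with the fusion and 9.24, 8.88 and 8.59 with the vector, overlapping by 1 pair. Its log2 fold change was -0.67 (SE 0.23, limma adjusted p = 0.658). AMOTL1, the angiomotin most like AMOTL2, and AJUBA, a LIM protein that inhibits LATS, were the other 2 genes at an unadjusted p below 0.05, with -0.39 and -0.35. Both were smaller without fusion tumor 1, at -0.18 and -0.19, and AMOTL1 stood at -0.16 with the mean of its probe sets. The MST kinases STK3 and STK4 stood at -0.11 and 0.16, and at -0.055 and 0.067 without vector tumor 1. SAV1, their scaffold, stood at -0.13 and ran from -0.23 without vector tumor 3 to -0.047 without vector tumor 2. Of the LATS cofactors, MOB1A stood at -0.12, and at -0.039 without vector tumor 1 or -0.016 without fusion tumor 1. MOB1B read 9.54, 9.57 and 9.53 with the fusion and 8.48, 9.54 and 9.71 with the vector, so that its log2 fold change of 0.30 turned to -0.079 without vector tumor 1 and was 0.54 without vector tumor 3.

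Of the 6 other TEAD and VGLL genes 5 were tested and 0 had an unadjusted p below 0.05. TEAD3 had a log2 fold change of 0.19 (SE 0.09, adjusted p = 0.855) with groups apart, since its vector values all lay between 7.10 and 7.13 and its fusion values between 7.23 and 7.36. TEAD2 stood at -0.09. VGLL4, which competes with YAP for TEADs, had -0.17 (SE 0.10, adjusted p = 0.956), with all fusion tumors below all vector tumors. VGLL1 and VGLL2 stood at 0.02 and 0.06, and VGLL3 lay below the filter level.

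Of the 17 other targets, taken from a published signature of YAP and TAZ activity in cancers, 14 were tested. By limma 0 were called, 10 lay above 0 and 4 at an unadjusted p below 0.05, all 4 higher in fusion tumors, where 50.8% of all genes tested lay above 0 and 3.16% were higher at that p. The median was 0.099, beside 0.0020 over all genes tested. PTPN14, a phosphatase that binds YAP, stood at 6.09, 6.08 and 6.03 with the fusion and 5.60, 5.80 and 5.42 with the vector. Its groups did not overlap (log2 fold change 0.46, SE 0.11, limma adjusted p = 0.376). NT5E, the surface enzyme CD73 that makes adenosine, had 0.68 (SE 0.19, adjusted p = 0.523), also with groups apart. GADD45A, a stress gene that arrests growth, had 0.71 (SE 0.27, adjusted p = 0.730) and DOCK5, an activator of RAC, 0.33 (SE 0.14, adjusted p = 0.837), both with overlapping groups. GADD45A stood at 0.44 without fusion tumor 2, and DOCK5 at 0.19 without vector tumor 3 and 0.16 with the mean of its probe sets. The other 10 gave smaller values: ASAP1 and CRIM1 each at 0.17, FJX1 at 0.16, NUAK2 at 0.04, the receptor kinase AXL and the membrane repair protein MYOF each at 0.03, ARHGEF17 at -0.03, FOXF2 at -0.06, CCDC80 at -0.20 and RBMS3 at -0.26. F3, IGFBP3 and TGFB2 lay below the filter level.

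**Figure D4:**
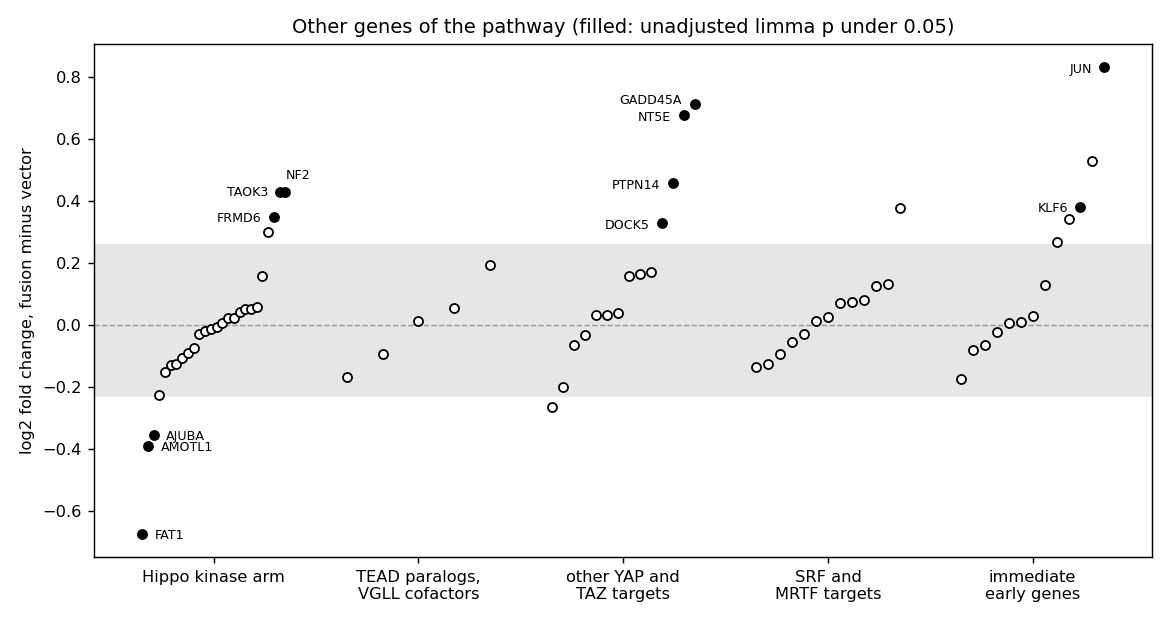
Log2 fold change, fusion minus vector, of each tested gene in 5 lists, ordered by value within a list. Filled points had an unadjusted limma p below 0.05 and are named, and the grey band holds the middle 90% of all genes tested (-0.23 to 0.26). The 4 filled points among the other targets all lie above the band, and the kinase arm has 3 filled points above and 3 below it.

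Lists that overlap the targets in their control were counted in the same way. Of 14 targets of SRF and its MRTF cofactors, a second input to CCN1, CCN2 and ANKRD1, 13 were tested, 0 were called and 0 had an unadjusted p below 0.05. Their median was 0.027, with FHL2 at 0.38, CNN2 at -0.13, TAGLN at 0.13 and MYL9 at -0.09. FHL2 stood at 0.65 without vector tumor 1 (limma adjusted p = 0.0548) and at 0.18 without vector tumor 3. Of the 13 immediate early genes, 0 were called and 2 were higher at an unadjusted p below 0.05, where 3.16% of all genes tested were. These were JUN at 0.83 (limma adjusted p = 0.120) and KLF6 at 0.38 (0.829), with FOS at 0.34 and DUSP1 at 0.27 next. JUN passed with the mean of its probe sets (adjusted p = 0.0436) and with array weights (0.00485), and KLF6 stood at 0.19 without vector tumor 1. The paralogs of CCN1, CCN2 and ANKRD1 were mostly dim. Only CCN3 was tested, at -0.09, while CCN4, CCN5, CCN6 and ANKRD2 lay below the filter level and ANKRD23 had no probe set of its own in the annotation.

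YAP1 lies on chromosome 11 close to the metalloproteinase genes MMP10 and MMP1, which are among the 10 genes called. In the order of RefSeq genes, MMP10 is the third and MMP1 the fourth tested gene after YAP1. MMP10 rose from 4.88 ± 0.31 in vector to 7.07 ± 0.19 in fusion tumors and MMP1 from 8.74 ± 0.44 to 10.77 ± 0.23 (SD, n = 3 each; log2 fold changes 2.18 and 2.03, limma adjusted p = 0.00629 and 0.0241). The vector mean of MMP10 lies under the filter level, so its fold change may be understated. MMP1 loses this call without any 1 of fusion tumors 1 to 3 or vector tumor 2, and MMP10 without fusion tumor 1 (adjusted p = 0.0757). A stricter filter, at the 50th percentile, left MMP1 at an adjusted p of 0.0508 and MMP10 untested. The tested genes between them and YAP1 are BIRC2, an inhibitor of apoptosis often amplified together with YAP1, and TMEM123. They had log2 fold changes of 0.18 and 0.15 (adjusted p = 0.956 and 0.962), and CFAP300 and CEP126 on the other side had -0.09 and 0.33, the latter 0.16 without vector tumor 1. Of the 16 nearest tested genes, 8 on each side, 13 had a log2 fold change above 0, where 50.8% of all genes tested did, and 2 were called. Vector tumor 1 was the lowest of the 6 for FAM76B, CEP57, CCDC82, JRKL, CEP126, TMEM123 and DYNC2H1, all among those above 0. The count without this tumor was not taken. CASP4, a caspase of inflammation and the farthest of the 8 tested genes after YAP1, was the only other one at an unadjusted p below 0.05 (log2 fold change 0.57, limma adjusted p = 0.633). MMP13, the next tested gene after MMP1, stood at -0.03.

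**Figure D5:**
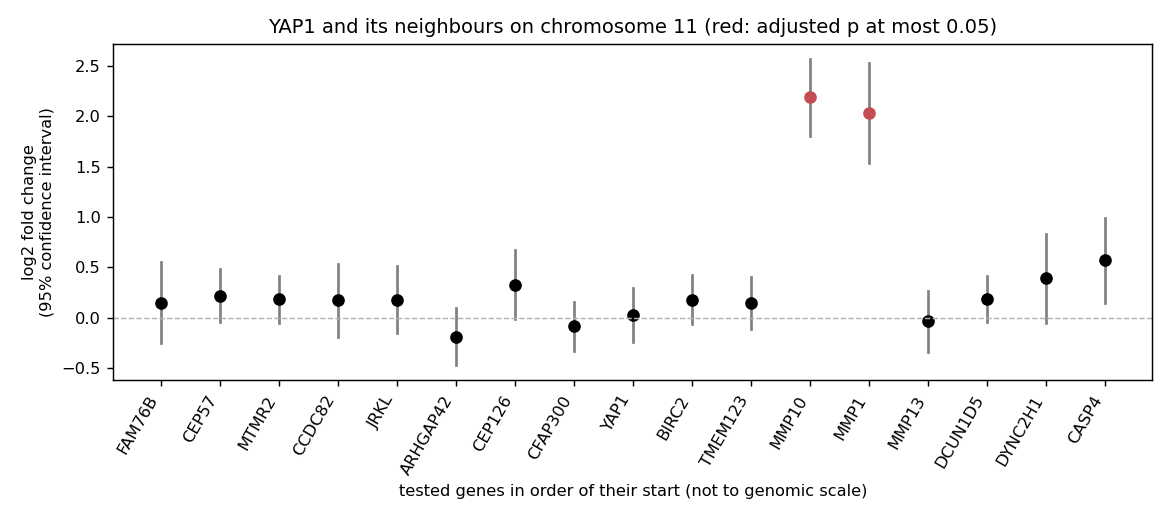
Log2 fold change, fusion minus vector, with its 95% confidence interval for YAP1 and the 8 nearest tested genes on each side, in order of their start and not to genomic scale. MMP10 and MMP1 (red) are the 2 genes called, at 2.18 and 2.03, while YAP1 lies at 0.03.

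Markers of other cell types were set beside these values, and 0 of them were called in the fit on all 6 tumors with equal weights. The host is a mouse while the probe sets name human genes, and mouse and human RNA were not separated. Whether these values follow the amount of host cells was therefore not tested. Of 12 fibroblast markers, 9 were tested and 8 lay above 0, with a median of 0.24, where 50.8% of all genes tested lay above 0. FAP (0.91, limma adjusted p = 0.202), COL1A1 (0.65), THY1 (0.36) and COL1A2 (0.24) were higher at an unadjusted p below 0.05, where 3.16% of all genes tested were. With the mean of probe sets COL1A1 stood at 0.18 and THY1 at 0.21. The list's mean levels ran from 6.93 to 7.12 in fusion and from 6.67 to 6.82 in vector tumors, while DCN, LUM and COL6A3 lay below the filter level. NT5E and THY1 can mark fibroblasts as well as tumor cells, and the part of fibroblasts in the values of the other YAP and TAZ targets was not tested. Of 11 endothelial markers 8 were tested, with a median of 0.059, 0 at an unadjusted p below 0.05, and mean levels of 5.950 to 5.996 with the fusion and 5.90 to 6.01 with the vector. CDH5 stood at -0.29, TIE1 at 0.10, VWF at 0.10 and ROBO4 at 0.09. Of 10 macrophage and leukocyte markers 5 were tested, with a median of -0.024 and mean levels of 6.60 to 6.63 with the fusion and 6.35 to 6.52 with the vector. CD68 stood at 0.80 (adjusted p = 0.112), CSF1R at 0.17, TYROBP at -0.13 and AIF1 at -0.04, while PTPRC, CD14, CD163, LYZ and MRC1 lay below the filter level. CD68 and FAP passed with array weights (adjusted p = 0.00485 and 0.0226). Of 7 adipocyte markers 5 were tested, with a median of -0.26 and mean levels of 5.74 to 5.83 with the fusion and 5.93 to 6.10 with the vector. PPARG, PLIN1 and CIDEC stood at -0.38, -0.33 and -0.26, each lower at an unadjusted p below 0.05, where 2.73% of all genes tested were. ADIPOQ stood at -0.09 and LPL at 0.04, while FABP4 and LEP lay below the filter level. PLIN1 stood at -0.22 without vector tumor 3 and CIDEC at -0.17 without vector tumor 1. CIDEC also stood at -0.058 with the mean of its probe sets and at 0.14 with the most variable one. Among the squamous markers SOX2 stood at -0.83 (adjusted p = 0.369; 0.0436 without vector tumor 1 and 0.0149 with array weights), CALML3 at 0.21, KRT5 at -0.13 and PERP at -0.11, and the 8 tested had a median of -0.062.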

How the data were processed

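Per the labels, total RNA of each tumor was taken with Trizol, labelled with biotin and run on 1 Affymetrix array. The table the authors deposited holds 1 log2 value per probe set and tumor. The scale was read from the values, and neither labels nor header name the background correction, normalization or summarisation. Names came from the platform annotation (44988 probe sets naming 1 gene, 1832 several, 2473 unnamed), and 44961 gene identifiers matched RefSeq (GRCh38.p14). Each gene took the probe set with the highest mean, and genes whose mean fell under log2 4.94, the 30th percentile, were left out, leaving 13694 of 18132. The fit used lmFit and eBayes of limma 3.58.1 (R 4.3.3, two-sided), with Benjamini-Hochberg adjustment over the whole table. The fit was tested on simulated data with independent noise for each gene. The simulation held no outlying tumor, so it does not show how the fit handles one. Confidence intervals are 95%. No detection call was used. From each list up to 4 tested genes with the smallest p were named. Every tested gene of the TEAD and VGLL list and of the other targets was named as well. AMOTL1, AJUBA, KRT14, EGR1, NR4A1, CASP4, MMP13, the STK3, STK4, SAV1 and MOB1 genes and dim markers were named after their values were seen. So were LPL, the remaining immediate early and muscle genes and further neighbours of YAP1. For CCN1, CCN2 and AMOTL2 the 3 genes with the highest r were named. The members and lists were chosen with earlier results of these data known. Alternatives covered the filter, probe set choice, normalization, moderation, array weights, the replicate block and leaving out each tumor. Figures used Python 3.11.15 and matplotlib 3.10.9.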

Additional observations from a re-analysis of the deposited data

How the results depend on the processing

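No member and no member probe set was called under any of the alternatives run, and adjusted p values of the members stayed at or above 0.416. Over all genes, the count of 10 became 1 with the filter at the 50th percentile, 16 with the mean of probe sets, 6 with the most variable probe set and 140 with array weights, and ran from 0 (without fusion tumor 1, where 667 genes had an unadjusted limma p below 0.05) to 37 (without vector tumor 1) when a tumor was left out. Member probe sets whose groups did not overlap numbered 0 to 4 when a tumor was left out, where 18.6% to 23.2% of all probe sets did not overlap.

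The sign of members near 0 turned under some settings. With the mean of probe sets, log2 fold changes were -0.010 for WWTR1, -0.072 for CCN1 and 0.045 for AMOTL2. With the most variable probe set they were -0.096 for LATS2, -0.18 for CCN1 and 0.065 for AMOTL2, and that of CIDEC was 0.14. With median centring they were -0.018 for WWTR1 and -0.015 for ANKRD1. With array weights they were -0.023 for YAP1, -0.074 for WWTR1, -0.040 for TEAD1 and 0.034 for AMOTL2. When a tumor was left out they ran from -0.070 to 0.12 for YAP1, -0.12 to 0.11 for WWTR1, -0.025 to 0.20 for LATS2, -0.51 to 0.77 for CCN1, -0.10 to 0.12 for AMOTL2 and -0.074 to 0.080 for ANKRD1. TEAD4 and CCN2 kept their sign under each of 15 alternatives, though TEAD4 has 1 probe set, so the choice of probe set could not change it. LATS1 was followed by its brightest probe set alone and kept its sign in the 11 alternatives run for it. Another LATS1 probe set stood at -0.10 in the main fit. The cause of these turns was not tested. Outside the module, STK3 turned to 0.054 and MOB1A to 0.070 with the mean of probe sets, MOB1A to 0.17 with the most variable probe set, and MOB1B ran from -0.079 (without vector tumor 1) to 0.54 (without vector tumor 3) when a tumor was left out. Array weights brought TAOK3 (adjusted p = 0.0387), JUN (0.00485), CD68 (0.00485), FAP (0.0226) and SOX2 (0.0149) past the threshold. The alternatives for genes outside the module were chosen after seeing the data.

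With the replicate number as a block, 8 genes (7 of the 10) and no member were called (CCN2 log2 fold change -0.44, limma adjusted p = 0.861). Same-numbered tumors had correlated deviations of 0.097, 0.174 and 0.0507. Among the tumors of the other group, each of the 6 correlated best with its own number. Deviations were taken from group means, so these 6 matches are not independent. They are a hint from the data and not the design. Dim probe sets, LATS1 and ANKRD1 among them, have no known background level, which limits what their values can show.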
